A study of Mus musculus with 2 samples.

Results

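The 10 genes described here encode the parts of MHC class I antigen presentation, and were chosen by symbol from the 32285 genes counted. They were the classical heavy chain genes H2-K1 and H2-D1, the non-classical heavy chain genes H2-Q7, H2-Q10 and H2-T23, the light chain gene B2m, the peptide transporter and loading genes Tap1, Tap2 and Tapbp, and the transactivator gene Nlrc5. Live spleen cells came from C57BL/6 mice kept anaemic for 1 month, in one group by injections of PHZ and in the other by repeated bleeding, each given every 3 days. PHZ is the usual short name of phenylhydrazine, a compound that damages red cells, but the labels give only the abbreviation. There was 1 droplet-based single-cell RNA library for each treatment, with no statement of how many mice it held or how old they were, and no untreated mice were analysed here. The question was how these genes were expressed as red cell precursors matured under each form of chronic anaemia.

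MHC class I molecules consist of a heavy chain and B2m, and carry a peptide to the cell surface, where CD8 T cells and NK cells read it. TAP1 and TAP2 form the pump that moves peptides into the endoplasmic reticulum, tapasin (Tapbp) holds an empty heavy chain beside that pump, and NLRC5 acts at the promoters of class I genes in cells of the immune system. Red cell precursors fill with haemoglobin and silence most other genes before they lose the nucleus, so that late cells keep a small and changing pool of RNA.

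The promoters of 8 of the 10 genes, all but Tap2 and Nlrc5, were found in RefSeq (build GRCm38.p6), as the 250 bases before the RefSeq start. The genes as annotated in GENCODE can start further upstream. By that annotation the windows of H2-D1 and Tapbp lie inside the gene. The window of H2-T23 overlaps its gene, and the stretch shown lies inside it. Those of B2m and Tap1 reach the first bases of the gene. Those of H2-K1 and B2m are shown with a shorter stretch of H2-T23, because these 3 genes followed different courses over maturation. Capitals mark matches, on either strand, to the NF-kB type site of the class I enhancer (the first run of capitals in H2-K1), to TTTCNNTT and the same letters followed directly by TC (the shorter and longer interferon response element, which overlap), to TGACG and to CCAAT. All are read 5′ to 3′ along the gene, so that a match on the other strand appears reversed, as ATTGG for CCAAT. The H2-K1 window is chr17:34000348-34000597 (minus strand), the B2m window is chr2:122147437-122147686 (plus strand), and the stretch of 30 bases of H2-T23 is chr17:36032806-36032835 (minus strand).
H2-K1: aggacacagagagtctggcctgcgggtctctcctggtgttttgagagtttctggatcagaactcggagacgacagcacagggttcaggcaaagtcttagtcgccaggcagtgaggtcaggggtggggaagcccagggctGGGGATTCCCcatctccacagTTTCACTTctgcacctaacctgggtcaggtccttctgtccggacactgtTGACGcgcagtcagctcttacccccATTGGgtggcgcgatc
B2m: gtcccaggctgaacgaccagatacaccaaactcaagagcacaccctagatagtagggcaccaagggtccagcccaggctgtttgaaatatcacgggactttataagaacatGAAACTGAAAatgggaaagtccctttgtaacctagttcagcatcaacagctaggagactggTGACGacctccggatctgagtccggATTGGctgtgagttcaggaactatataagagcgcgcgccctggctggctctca
H2-T23: atcctactgcTTTCTCTTTCataaagacac
The NF-kB type site stood in the windows of H2-K1, H2-D1 and H2-Q7, 3 of the 8, and in 0.0852% of all 32851 RefSeq windows of this length. The longer interferon element stood in those of B2m and H2-T23, 2 of the 8, against 2.98% of all windows, and the shorter TTTCNNTT in 6 of the 8 against 21.3%. TGACG was found in 5 of the 8 windows (17.8% of all) and CCAAT in 7 of the 8 (33.8% of all). AGATAA, the letters of a GATA factor site, and CCACACCC, those of a KLF1 site, were in 0 of the 8 windows and in 9.99% and 3.2% of all windows. These matches describe letters in the windows and are not evidence of binding.

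In the files' build (mm10, the same coordinates as GRCm38), 8 of the 10 genes lie on chromosome 17, among them H2-K1 at chr17:33996017-34000347 and H2-T23 at chr17:36029773-36032855, both on the minus strand. B2m lies at chr2:122147686-122153083 and Nlrc5 at chr8:94434356-94527272, both on the plus strand. Class I heavy chain genes are near-identical over long stretches, so that reads of H2-K1, H2-D1, H2-Q7 and their relatives may have been split or lost in counting, and their values are uncertain to that extent. Several of the genes overlap a neighbour, and the use of strand in counting was not stated. H2-T23 overlaps the antisense gene A930015D03Rik, B2m overlaps Patl2, Tap1 overlaps Psmb9, Tap2 overlaps Gm20496 and Gm15821, Tapbp overlaps Zbtb22 and Gm19412, and Nlrc5 overlaps 9330175E14Rik.

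After filtering, 6113 cells of the PHZ library and 8953 of the bleeding library remained, with medians of 12242 and 8045 UMIs, and 15 cell barcodes occurred in both. Red cell precursors, named from erythroid marker genes, numbered 3342 and 2418. They were divided by the share of haemoglobin in their UMIs into early cells (under 20%; 436 and 213 cells), cells of 20 to 50% (326 and 138), cells of 50 to 80% (901 and 394), late cells (80% or more and at least 500 genes; 410 and 200) and late cells with 300 to under 500 genes (1269 and 1473). Barcodes with 80% haemoglobin or more and under 300 genes, 2545 and 3000, were kept as a last stage. The labels of the stages were checked against other genes: 10 of 10 late erythroid genes, such as Bpgm and Alas2, were at least 2-fold higher in late than in early cells of both libraries. Genes of early cells gave no check, since most genes of all kinds were lower in late cells. Markers of other cell types were also present in the erythroid stages. Of the immune marker genes with a ratio, 24 of 25 and 26 of 27 were at least 2-fold higher in late than in early cells, and a list of 10 B cell genes, none of them at 0 in any stage, summed to 73.4 to 830 UMIs per 1000000 over the PHZ stages and 222 to 3128 over the bleeding stages. This list was not particular to B cells. It summed to 27518 (PHZ) and 29127 (bleeding) in cells named from B cell markers. In cells named from dendritic cell markers it summed to 26554 and 30343. Levels are UMIs per 1000000 UMIs outside the haemoglobin genes (CPM), summed over the cells of a stage. Brackets hold 95% intervals that cover counting error only, since UMIs within 1 library are not replicates, and no test between libraries was possible.

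H2-T23, which encodes the heavy chain of Qa-1, a molecule read by an inhibitory receptor of NK cells, was the one gene of the 10 at least 2-fold higher in late than in early erythroid cells of both libraries. In the PHZ library its level was 22.7 CPM in early cells, 66.8 at 20 to 50% haemoglobin, 257 at 50 to 80%, 381 in late cells, 248 in late cells with fewer genes and 73.0 in the last barcodes. In the bleeding library the same stages held 29.0, 94.0, 334, 428, 161 and 67.3 CPM. Both libraries thus had their highest level in late cells and a lower one in cells and barcodes with fewer genes. The late over early ratio was 16.8 (14.4 to 19.5) for PHZ and 14.8 (12.04 to 18.2) for bleeding. Sums give deep cells more weight. Of the early cells, 182 of 436 (PHZ) and 97 of 213 (bleeding) lay in clusters with a median under 5000 UMIs. These cells gave 3.72% and 4.08% of the early UMIs outside haemoglobin. Counted per cell, H2-T23 had 0.745 UMIs in early, 1.37 in 50 to 80% and 0.922 in late cells of the PHZ library, and 0.892, 1.54 and 0.965 in those of the bleeding library, so the UMIs per cell were highest at 50 to 80%. Median UMIs of all genes per cell were 5507 in early and 15529 in 50 to 80% PHZ cells, and 3992 and 14032 in bleeding cells. Counts per cell thus depend on depth as well as on expression. A lower level in a stage may mean fewer cells with the RNA or less RNA in each, which sums over cells cannot separate.

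The share of cells with an H2-T23 UMI, after each cell was thinned to 300 UMIs outside haemoglobin with no cell left out, was 3.21% (1.77 to 5.33) in early and 12% (8.97 to 15.5) in late cells of the PHZ library. In bleeding cells it was 3.76% (1.64 to 7.27) and 10.5% (6.62 to 15.6). With cells counted alike and at equal depth, early and late cells thus differed less than in the ratio of summed levels. Without thinning the shares were 39.4% and 50.5%, and 40.4% and 51.0%. The B cell gene Cd79a, which erythroid cells should lack, gave 0.229% and 0.732% in the thinned cells of the PHZ library and 0.469% (0.0119 to 2.59) and 2.0% (0.548 to 5.04) in those of the bleeding library, at median depths of 4852 and 2193, and 3385 and 2108, UMIs outside haemoglobin. The H2-T23 shares were above those of Cd79a, with intervals that overlapped in early bleeding cells alone. Free RNA, estimated from near-empty barcodes and scaled by the B cell genes, would give 11.4 CPM of the 381 in late PHZ cells and 20.3 of the 428 in late bleeding cells, so that the observed levels were 33.5 and 21.1 times the estimate.

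The antisense gene A930015D03Rik did not follow the same course. It held 34.1 CPM in early, 172 at 50 to 80% and 40.4 in late cells of the PHZ library, and 33.7, 192 and 86.5 in those of the bleeding library. Its level was thus highest at 50 to 80% haemoglobin and lower in late cells, where H2-T23 was highest. Among early cells, H2-T23 differed by cluster. Cluster 11, which held 205 and 94 early cells and most of the UMIs of that stage, had 16.8 and 22.7 CPM. A group of 44 and 22 early cells fell in cluster 2, led by Tmcc2, whose cells of all stages had a median of 72.7% haemoglobin. These early cells had 655 (500 to 843) and 670 (434 to 990) CPM of H2-T23, on 60 and 25 UMIs.

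**Figure D1:**
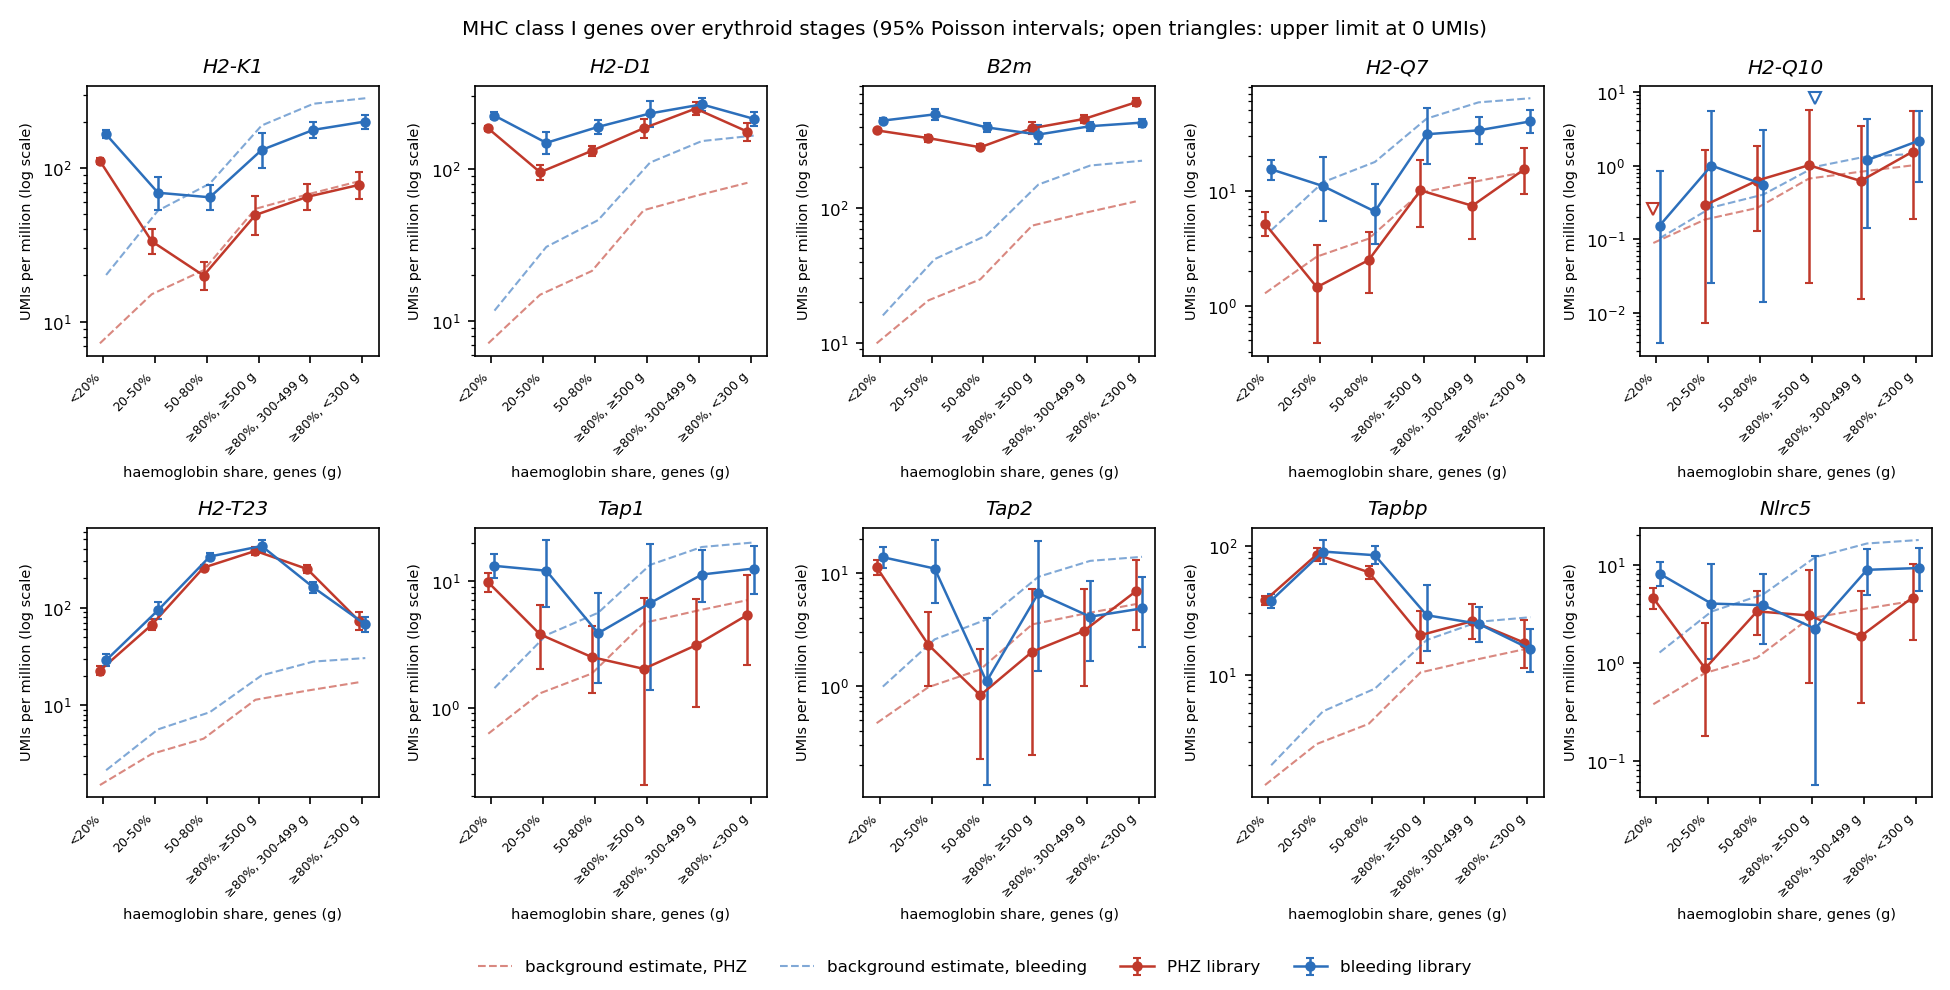
Level of each of the 10 genes over 6 erythroid stages (x axis, haemoglobin share and number of genes) in UMIs per 1000000 outside haemoglobin (y axis, log scale), PHZ library in red and bleeding library in blue, with 95% Poisson intervals. Dashed lines are the level that free RNA alone would give. H2-T23 goes from 22.7 and 29.0 in early to 381 and 428 in late cells, 33.5 and 21.1 times its dashed lines there, while H2-K1 lies at 0.677 to 0.965 times its dashed lines from 50 to 80% haemoglobin on.

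H2-K1, a classical heavy chain gene, was lower in every later stage up to the late cells of both libraries than in early cells. In the PHZ library it held 111 CPM in early cells, 33.4 at 20 to 50%, 19.97 at 50 to 80%, 49.4 in late cells, 64.9 in late cells with few genes and 77.6 in the last barcodes. Bleeding cells had 165, 69.0, 64.5, 131, 177 and 200 CPM. The 50 to 80% over early ratio was 0.180 (0.145 to 0.221) for PHZ and 0.390 (0.320 to 0.473) for bleeding. The late over early ratio was 0.445 (0.328 to 0.591) for PHZ and 0.792 (0.599 to 1.03) for bleeding. Early cells held 15.3 and 8.20 times the H2-K1 that free RNA would give. From 50 to 80% on, the level was 0.912 to 0.965 times that estimate in the PHZ library and 0.677 to 0.814 times in the bleeding library, so expression is not read from it there. The estimate exceeded the observed level and may be too high. Whether these cells held some H2-K1 RNA of their own was not tested. The 10 B cell genes that set the estimate were at 73.4 CPM in sum in early and 549 in late PHZ cells, and at 222 and 2081 in bleeding cells.

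H2-D1, the other classical heavy chain gene, held 184 CPM in early, 94.9 at 20 to 50%, 131 at 50 to 80% and 185 in late cells of the PHZ library, then 248 in late cells with few genes and 175 in the last barcodes. Bleeding cells had 223, 148, 188, 231, 265 and 213 CPM. The lowest level of both libraries was thus at 20 to 50% haemoglobin, with a ratio to early cells of 0.516 (0.459 to 0.579) and 0.662 (0.556 to 0.785). The late over early ratio was 1.0 (0.860 to 1.17) and 1.03 (0.838 to 1.26). Unlike H2-K1, H2-D1 in late cells was 3.45 and 2.10 times the level of free RNA, and after subtraction 131 and 121 CPM remained against 177 and 212 in early cells. Per cell, it went from 6.04 UMIs in early to 0.446 in late PHZ cells and from 6.88 to 0.520 in bleeding cells.

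B2m, the light chain shared by all class I heavy chains, was at 282 to 608 CPM in every stage of both libraries before free RNA was subtracted. It held 377, 330, 282, 390, 457 and 608 CPM from early cells to the last barcodes of the PHZ library, and 445, 495, 396, 351, 404 and 430 in the bleeding library. The late over early ratio was 1.04 (0.933 to 1.15) for PHZ and 0.788 (0.667 to 0.925) for bleeding. The observed level in late cells was 5.29 and 2.35 times that of free RNA. After subtraction, 367 CPM in early and 317 in late PHZ cells remained, and 429 and 202 in bleeding cells, a log2 difference of -1.09 between the latter, past 2-fold lower. In late bleeding cells other members lay under the free RNA estimate. They were H2-K1 (0.693 times), H2-Q7 (0.731), Tap1 (0.499), Tap2 (0.716) and Nlrc5 (0.187). Subtraction may thus remove too much there, and a 2-fold drop of B2m is not read from it. Per cell, B2m went from 12.4 UMIs in early to 0.944 in late PHZ cells, and from 13.7 to 0.790 in bleeding cells.

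Tapbp, the loading chaperone gene, was highest in the middle stages. Its levels were 37.6, 85.3, 62.2, 20.2, 26.0 and 17.7 CPM in the PHZ library and 37.5, 90.0, 84.3, 28.8, 24.8 and 15.7 in the bleeding library. The 20 to 50% over early ratio was 2.27 (1.96 to 2.62) and 2.40 (1.86 to 3.07), and the levels there were 29.5 and 17.4 times those of free RNA. In late cells Tapbp was 1.95 and 1.56 times free RNA, and after subtraction 9.81 and 10.3 CPM remained, against 36.2 and 35.5 in early cells. The transporter genes went the other way at 50 to 80% haemoglobin, Tap1 from 9.71 to 2.50 CPM and Tap2 from 11.3 to 0.832 in the PHZ library. In bleeding cells Tap1 went from 13.1 to 3.86 and Tap2 from 13.9 to 1.10 CPM, on 2 to 12 UMIs at that stage. Late cells held 2 UMIs of each transporter gene in the PHZ library and 3 of each in the bleeding library, under the level of free RNA. Psmb9, which overlaps Tap1, was at 12.7 and 20.3 CPM in early and 7.06 and 13.3 in late cells, and Zbtb22, which overlaps Tapbp, at no more than 11.2 CPM in the early, 50 to 80% and late cells.

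Nlrc5 was low in every erythroid stage, with 4.54 CPM in early and 3.03 in late cells of the PHZ library (65 and 3 UMIs) and 8.08 and 2.22 in the bleeding library (53 and 1 UMIs). H2-Q7, a gene of the Qa-2 antigens, held 5.17 CPM in early and 10.1 in late cells of the PHZ library and 15.4 and 31.1 in the bleeding library. Its late levels were 1.05 and 0.731 times free RNA, so that the late over early ratios of 1.95 (0.899 to 3.79) and 2.02 (1.07 to 3.54) are not read as expression. In early cells 31 of the 74 H2-Q7 UMIs of the PHZ library and 48 of the 101 of the bleeding library came from 3 cells each. H2-Q10, known for a secreted heavy chain made by the liver, had 0 to 4 UMIs in each erythroid stage.

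Over the 10 genes, 3 of the 9 with a ratio were at least 2-fold lower and 1 at least 2-fold higher in late than in early cells of the PHZ library, where 75.3% of all genes with a mean of at least 10 CPM were lower and 10.6% higher. In the bleeding library 2 were lower and 2 higher, against 71.7% and 12.6% of all genes. With all UMIs as the denominator, haemoglobin included, 8 of 9 were lower in each library. The filter of 10 CPM leaves out low genes such as Nlrc5, and among genes with at least 1 UMI 79.1% were lower in the PHZ and 75.0% in the bleeding library. The lower genes were H2-K1, Tap1 and Tap2 in the PHZ library and Tap2 and Nlrc5 in the bleeding library, and the higher ones were H2-T23 in both and H2-Q7 in the bleeding library. H2-Q7 in the PHZ library (1.95) and Tap1 in the bleeding library (0.508) lay just short of 2-fold. The median log2 ratio of the 9 genes was -0.59 and -0.34, where that of all genes was -2.78 and -2.22. All 9 thus lay above the median gene of each library, and relative to the shift of all genes 0 of 9 were 2-fold lower, although H2-K1, H2-Q7, Tap1, Tap2 and Nlrc5 were at or under the floor of 3 counts in late cells of both libraries once free RNA was subtracted. At 50 to 80% haemoglobin, 4 of 9 were lower and 1 higher in the PHZ library (53.7% and 16.5% of all genes), and 5 of 9 lower and 2 higher in the bleeding library (54.1% and 16.8%). At 20 to 50%, 5 of 9 were lower and 2 higher in the PHZ library (29.8% and 13.3% of all genes), and 2 lower and 2 higher in the bleeding library (33.8% and 16.4%). The higher genes at 20 to 50% were H2-T23, at 2.94 (2.47 to 3.49) and 3.25 (2.51 to 4.18), and Tapbp. Among genes with at least 1 UMI, 48.5% and 50.1% were lower at 20 to 50%. The count of lower members was thus, with haemoglobin left out of the denominator, smaller than either share in late cells, and at 50 to 80% close to the share.

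**Figure D2:**
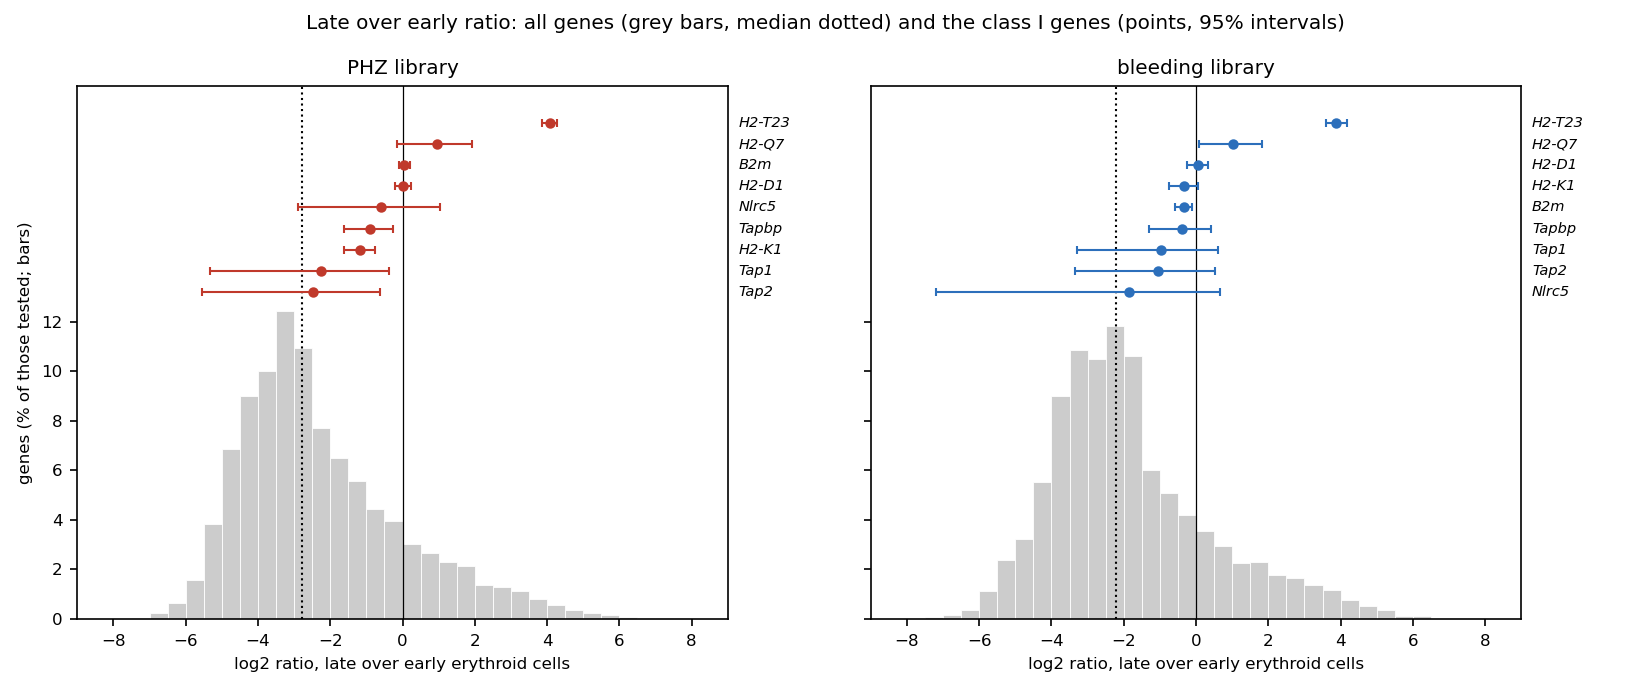
Histogram of the log2 ratio of late over early erythroid cells for all genes with a mean of at least 10 CPM (grey bars, % of genes; dotted line, their median) with the class I genes as points and 95% intervals, PHZ library left and bleeding library right. The all-gene medians are -2.78 and -2.22, and H2-T23 is farthest to the right in both libraries.

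The late cells were not uniform. Late cells with at least 300 genes fell mainly in cluster 1 (814 and 1337 cells) and cluster 4 (786 and 274 cells), which were formed without the class I genes, and cluster 4 was led by the interferon-induced gene Isg15. Rsad2, also an interferon response gene, was among the leading genes of both clusters. Late cells with at least 500 genes were pooled here with those with fewer, whose H2-T23 levels were lower (248 against 381 CPM for PHZ, 161 against 428 for bleeding). Their mix in each cluster was not compared. H2-T23 was at 361 (330 to 395) and 429 (369 to 497) CPM in cluster 4 and at 167 (143 to 194) and 129 (112 to 148) in cluster 1. B2m was at 522 and 529 CPM in cluster 4 and at 338 and 365 in cluster 1, and H2-D1 at 266 and 355 against 173 and 225. All 3 genes were thus higher in cluster 4 of both libraries, with intervals that did not overlap those of cluster 1. H2-K1 was at 54.4 and 143 CPM in cluster 4 and at 67.2 and 183 in cluster 1. The share of late cells in cluster 4 differed between the libraries, and its part in differences between them was not tested.

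For H2-K1, H2-D1 and B2m every immune class of the same libraries lay above every erythroid stage, and for H2-T23 this was not so. Their classes were named from marker genes and are called "-like". H2-K1 was at 1996 CPM in NK cell-like, 1484 in T cell-like, 901 in dendritic cell-like, 886 in monocyte-like, 886 in B cell-like, 507 in red pulp macrophage-like and 293 in neutrophil-like cells of the PHZ library, above the 111 of early erythroid cells. In the bleeding library the order was 2016 in NK cell-like, 1499 in T cell-like, 1088 in monocyte-like, 991 in B cell-like, 951 in dendritic cell-like, 753 in red pulp macrophage-like and 323 in neutrophil-like cells. Dendritic, monocyte and B cell-like cells could not be ordered in the PHZ library, nor B and dendritic cell-like cells in the bleeding library, because their intervals overlapped. The 20 UMIs of 17 red pulp macrophage-like PHZ cells gave an interval of 310 to 783.

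B2m was highest in red pulp macrophage-like (2839 and 2188 CPM, 17 and 215 cells) and monocyte-like cells (2451 and 2541), followed by NK cell-like (1712 and 1833), dendritic cell-like (1619 and 1764), T cell-like (1462 and 1481), B cell-like (1053 and 1058) and neutrophil-like cells (888 and 900). NK and dendritic cell-like cells could not be ordered in either library. The lowest of these was more than the 377 and 445 of early erythroid cells. H2-D1 was at 1926 and 1893 CPM in monocyte-like and 1610 and 1748 in NK cell-like cells, with intervals that overlapped in the bleeding library, and at 942 and 936 in B cell-like cells. For H2-T23 the order was different. Late erythroid cells, at 381 (344 to 422) and 428 (370 to 493) CPM, were above B cell-like (193 and 214), T cell-like (172 and 189), NK cell-like (177 and 192), monocyte-like (217 and 273) and neutrophil-like cells (92.6 and 118). Red pulp macrophage-like cells had 380 (213 to 627, 15 UMIs) and 115 (95.5 to 138). Dendritic cell-like cells, at 334 (306 to 363) and 318 (296 to 341), overlapped with them in the PHZ library and not in the bleeding library.

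The genes with low erythroid levels were spread differently over the classes. Nlrc5 was at 247 and 232 CPM in T cell-like, 157 and 199 in NK cell-like and 192 and 110 in dendritic cell-like cells, and at 57.2 and 77.1 in B cell-like cells. H2-Q7 was highest in NK cell-like (558 and 659) and T cell-like cells (469 and 494) and was at 11.7 and 22.3 in neutrophil-like cells. Tap1 was at 140 and 124 CPM in dendritic cell-like and 82.4 and 114 in monocyte-like cells, with intervals that overlapped in the bleeding library. Tap2 had 95.9 and 71.8 CPM in dendritic cell-like and 91.0 and 90.8 in T cell-like cells. Tapbp had 212 and 168 CPM in dendritic cell-like cells and 152 (on 6 UMIs) and 218 in red pulp macrophage-like cells. Neutrophil-like cells had 72.6 and 76.7 CPM of Tapbp, with intervals that overlapped those of erythroid cells at 20 to 50% haemoglobin in both libraries. H2-Q10 was at 85.3 and 190 CPM in neutrophil-like cells and at most 8.72 in any other class. Within them it was higher in cluster 18, led by S100a9, Csf3r and Il1b, with 622 (550 to 700) and 916 (800 to 1044) CPM, against 19.3 and 6.20 in cluster 14, led by S100a9, Ngp and Camp. The neutrophil-like cells of the bleeding library were 63 of cluster 18 and 49 of cluster 14, those of the PHZ library 106 and 189. The plot of levels by class shows these orders.

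**Figure D3:**
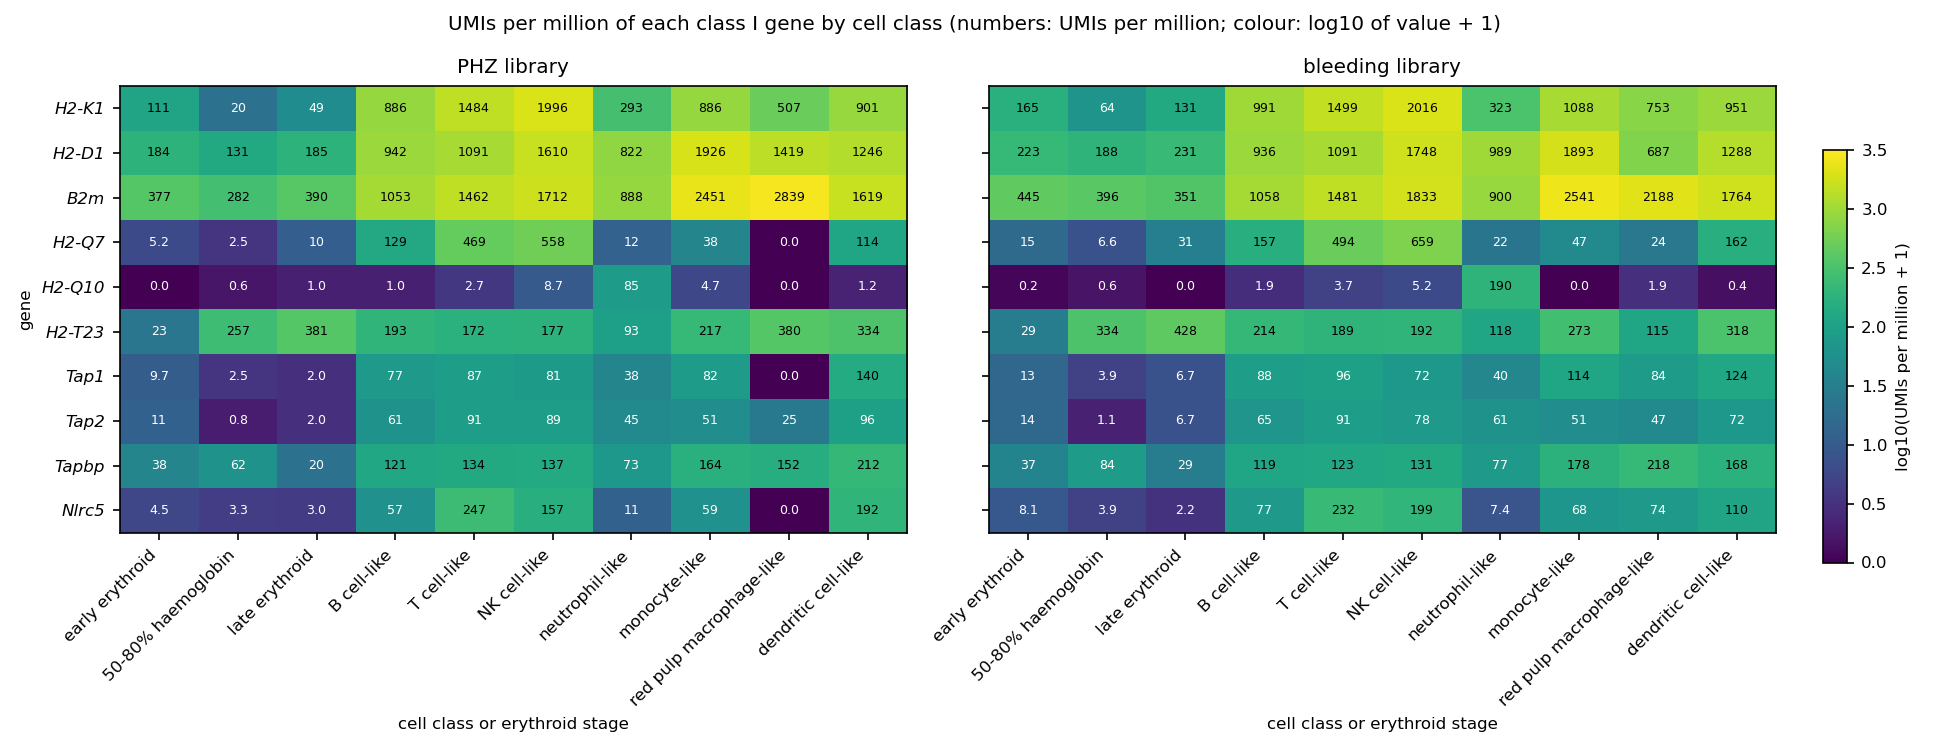
Level of each of the 10 genes (rows) in 3 erythroid stages and 7 immune classes (columns), PHZ library left and bleeding library right. Numbers are UMIs per 1000000 outside haemoglobin and the colour is log10 of the value + 1. In the row of H2-T23 late erythroid cells are at 381 and 428, with red pulp macrophage-like cells of the PHZ library level at 380, and in the row of H2-Q10 neutrophil-like cells are, at 85.3 and 190.

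Between treatments, 8 of the 9 genes with a ratio in early erythroid cells had the lower level in the PHZ library. H2-Q7 (0.336, 0.245 to 0.458) and Nlrc5 (0.562, 0.385 to 0.824) were past 1.5-fold lower in PHZ than in bleeding, 2 of the 9, where 1.53% of all genes were that much lower and 0.519% higher among genes with a mean of at least 10 CPM. Nlrc5 is under that limit, and among genes with at least 1 UMI 18.1% were lower and 19.1% higher, so that 2 of 9 is close to the share of genes of any level. H2-K1, with 111 CPM in PHZ and 165 in bleeding cells, was at 0.673 (0.623 to 0.728). The ratio was 0.823 (0.772 to 0.878) for H2-D1, 0.847 (0.809 to 0.886) for B2m, 0.784 (0.654 to 0.943) for H2-T23, 0.741 (0.562 to 0.981) for Tap1, 0.816 (0.628 to 1.07) for Tap2 and 1.0 (0.861 to 1.17) for Tapbp. The median log2 ratio of the 9 genes was -0.35, where that of all genes was -0.02. The B cell genes of free RNA were lower in the PHZ library too, 10 of 10 past 1.5-fold in early, 20 to 50%, 50 to 80% and late cells. Empty barcodes also differed, with 407 CPM of H2-K1 in the PHZ and 1185 in the bleeding library. After subtraction of free RNA, early cells held 104 and 145 CPM of H2-K1, 3.89 and 10.9 of H2-Q7 and 4.17 and 6.81 of Nlrc5, still lower in the PHZ library, and their log2 ratios were -0.48, -1.48 and -0.71.

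At 20 to 50% haemoglobin the count was largest, with 7 of 9 past 1.5-fold lower in the PHZ library and 0 higher, where 7.69% of genes with a mean of at least 10 CPM were lower and 7.16% higher. H2-Q7, Tap1, Tap2 and Nlrc5 are under that limit, and among genes with at least 1 UMI 24.1% were lower and 26.0% higher. B2m was at 0.666 (0.599 to 0.742), H2-D1 at 0.641 (0.526 to 0.784) and H2-K1 at 0.484 (0.356 to 0.662), and H2-Q7, Tap1, Tap2 and Nlrc5 were at 0.132 to 0.314 on 3 to 13 UMIs in each library, with an interval for Nlrc5 (0.0319 to 1.29) that held 1. Levels at this stage were 0.542 and 0.926 times free RNA for H2-Q7, 1.11 and 1.21 times for Nlrc5 and 2.21 and 1.31 times for H2-K1, and the B cell genes summed to 153 CPM in PHZ and 582 in bleeding cells. Free RNA would give 15.1 of the 33.4 CPM of H2-K1 in PHZ cells and 52.8 of the 69.0 in bleeding cells. No difference in expression is read for H2-Q7, Nlrc5 and H2-K1. For B2m free RNA would give 20.6 of 330 and 41.7 of 495 CPM, and for H2-D1 14.9 of 94.9 and 30.7 of 148. Its part in the ratios of B2m, H2-D1, Tap1 and Tap2 was not tested. H2-T23 (0.710, 0.556 to 0.913) and Tapbp (0.948, 0.746 to 1.21) were the 2 within 1.5-fold.

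At 50 to 80% haemoglobin H2-K1 (0.310), H2-Q7 (0.378) and Tap1 (0.647, 0.235 to 1.94) were past 1.5-fold lower in the PHZ library, where 5.72% of genes with a mean of at least 10 CPM were lower and 5.64% higher. H2-Q7 and Tap1 are under that limit, and among genes with at least 1 UMI 25.6% were lower and 25.6% higher. The levels were 0.923 and 0.814 times free RNA for H2-K1, 0.651 and 0.371 times for H2-Q7 and 1.35 and 0.690 times for Tap1, so that no difference in expression is read from these 3 genes. H2-T23 was at 0.770 (0.698 to 0.85), B2m at 0.712 (0.650 to 0.780) and H2-D1 at 0.697 (0.610 to 0.797). In late cells H2-K1 (0.378, 0.253 to 0.561) and H2-Q7 (0.325, 0.129 to 0.786) were past 1.5-fold lower, 2 of the 6 genes with a ratio, where 25.9% of genes with a mean of at least 10 CPM were lower and 15.4% higher. Both were at the level of free RNA in late cells, so no difference in expression is read from them. The other late ratios were 0.80 (0.626 to 1.03) for H2-D1, 1.11 (0.923 to 1.35) for B2m, 0.891 (0.747 to 1.07) for H2-T23 and 0.700 (0.331 to 1.53) for Tapbp, all with intervals that held 1.

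In lymphocytes most ratios lay nearer to 1. In B cell-like cells H2-K1 was at 0.893 (0.872 to 0.916), H2-D1 at 1.01, B2m at 0.995, H2-T23 at 0.904 and Nlrc5 at 0.743 (0.675 to 0.817), and the single gene past 1.5-fold was H2-Q10, lower at 10 and 44 UMIs, where 0.616% of genes with a mean of at least 10 CPM were lower and 1.64% higher. H2-Q10 is under that limit, and among genes with at least 1 UMI 18.2% were lower. In T cell-like cells 0 of the 10 were past 1.5-fold (0.401% of genes with a mean of at least 10 CPM lower and 1.8% higher), with H2-K1 at 0.990, H2-D1 at 1.0, B2m at 0.988 and Nlrc5 at 1.06 (0.996 to 1.13). Other immune classes were not all as near to 1. In neutrophil-like cells H2-K1 was at 0.909, H2-D1 at 0.831, B2m at 0.987 and H2-T23 at 0.784 (0.645 to 0.958). The same genes were at 0.814, 1.02, 0.964 and 0.794 in monocyte-like cells and at 0.947, 0.968, 0.918 and 1.05 in dendritic cell-like cells. Nlrc5 was higher in PHZ dendritic cell-like cells, at 1.76 (1.49 to 2.07). Whether the treatment ratio differed between erythroid and immune cells was not tested. With 1 library for each treatment, the treatment, the mice and the library cannot be told apart.

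**Figure D4:**
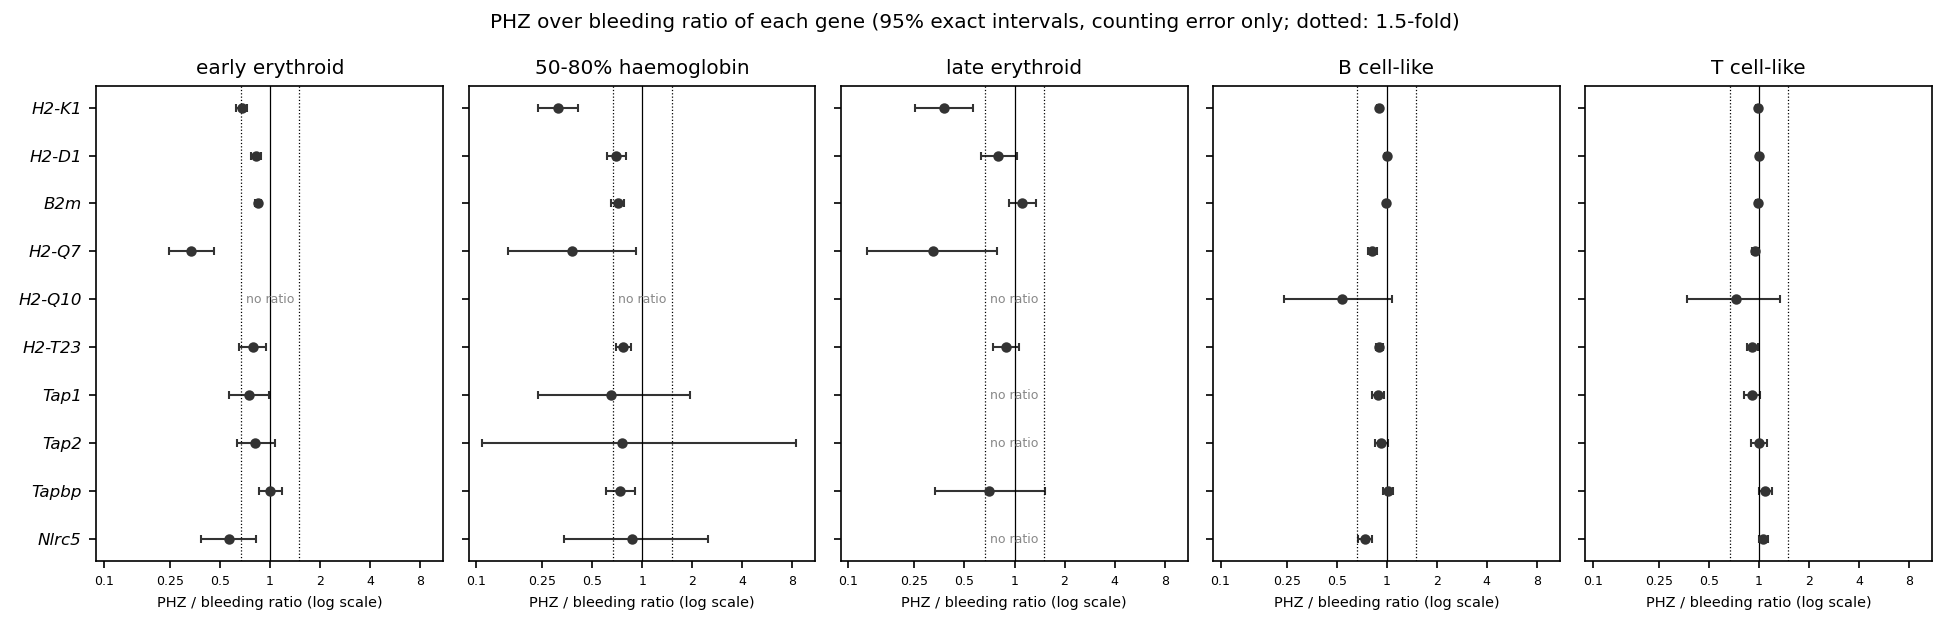
PHZ over bleeding ratio (x axis, log scale) of each of the 10 genes (y axis) in 3 erythroid stages and in B and T cell-like cells, with exact 95% intervals for counting error; dotted lines mark 1.5-fold. H2-K1 lies at 0.673 in early and 0.378 in late erythroid cells and at 0.893 and 0.990 in B and T cell-like cells.

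The rest of the pathway was read from lists of other genes, whose counts can be set against the shares of all genes given above. Free RNA was not subtracted for any of these lists. The B cell genes that track it summed to 73.4 CPM in early and 549 in late PHZ cells, and to 222 and 2081 in bleeding cells. A count of higher genes is therefore not read by itself as expression. Of 14 other class I and class I-like genes, 8 had a late over early ratio in the PHZ library, 3 at least 2-fold higher and 1 lower, and 7 in the bleeding library, 5 higher and 0 lower. H2-T24, a non-classical gene, was at 16.3 CPM in early, 162 in 50 to 80% and 51.5 in late PHZ cells, and at 19.2, 180 and 93.2 in bleeding cells, so that it was higher at 50 to 80% than in late cells, where H2-T23 was highest. H2-T22 was at 5.52, 14.4 and 8.07 CPM in the PHZ and 8.38, 24.8 and 28.8 in the bleeding library, and H2-Q4 at 5.52 and 8.23 in early cells and at 1 and 3 UMIs in late ones.

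Of the 9 genes of peptide loading and trimming, 6 were at least 2-fold lower and 0 higher in late PHZ cells, and 5 lower and 1 higher in bleeding cells. Canx, a chaperone of new heavy chains, had ratios of 0.117 (0.0846 to 0.158) and 0.0758 (0.0391 to 0.133), while Calr, its soluble relative, had 0.933 and 0.648 and the chaperone gene Hspa5 0.889 and 1.36. Of the 5 genes of the immunoproteasome and its activator, 1 was lower in both libraries, Psmb10, which went from 67.1 to 4.04 CPM and from 79.4 to 8.87. The activator genes Psme1 and Psme2 had ratios of 1.63 and 0.927 in the PHZ and of 0.985 and 0.729 in the bleeding library. Of the 3 catalytic subunits of the constitutive proteasome 2 were lower in each library, Psmb5 (0.439 and 0.293) and Psmb6 (0.476 and 0.218), with Psmb7 at 0.796 and 0.503.

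Of 15 regulators of class I genes, 5 were at least 2-fold higher and 7 lower in late PHZ cells, and 6 higher and 6 lower in bleeding cells. Nfyb and Nfyc, subunits of the factor that binds CCAAT, had ratios of 0.270 and 0.0927 in the PHZ and of 0.210 and 0.130 in the bleeding library, and Irf9, part of the interferon-activated complex ISGF3, had 1.76 (1.36 to 2.25) and 2.39 (1.70 to 3.29). Of the interferon response genes with a ratio, 12 of 19 were at least 2-fold higher and 2 lower in the PHZ library and 12 of 18 higher and 3 lower in the bleeding library. Isg15 went from 50.2 to 8378 CPM and from 44.2 to 6664, Rsad2 from 117 to 8372 and from 143 to 8703, and Jak1, an interferon receptor kinase, from 146 to 320 and from 143 to 348. Ifitm3 was at 205 and 93.2 CPM in late cells, a PHZ over bleeding ratio of 2.20 (1.57 to 3.14).

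Likeness was taken over 25 profiles, the erythroid stages and immune classes of both libraries except the 17 red pulp macrophage-like PHZ cells. By Pearson correlation of log2(CPM + 10), the genes most like B2m were Itgav (0.972), Laptm5 (0.963), Glud1 (0.956), Trps1 (0.955) and Epsti1 (0.955), among 3275 genes with a mean of at least 50 CPM. Those most like H2-K1 were Dock10 (0.977), Tmsb10 (0.972), Dock11 (0.965), AC149090.1 (0.965) and Cbfb (0.964). B2m and H2-K1 were at 0.908 with each other, while H2-T23 was at 0.264 with B2m and at 0.211 with H2-K1. The genes most like H2-T23, a choice made after its values were seen, were Acbd5 (0.829), Pnrc1 (0.809), Nub1 (0.805), Trim12c (0.797) and Trim26 (0.763). The profiles share 2 libraries and their totals, so these values describe likeness and carry no test.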

How the data were processed

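Spleen cells of 2 libraries were profiled by droplet-based 3′ single-cell RNA sequencing. As deposited, each matrix gives raw counts: the UMIs of a gene in a barcode, with no normalization. Per the submitters' processing notes the authors used Cell Ranger 7.0.0 and build mm10, while the file headers name version 4. The annotation release and the handling of introns and strand are not given in the sources used here. By identifier, 32235 of 32285 genes matched GENCODE M21. The matrices held 128130213 (PHZ) and 145260780 (bleeding) UMIs.

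A barcode was kept as a cell with 1000 UMIs or more, 300 genes or more and no more than 10% of UMIs mitochondrial. Scrublet (scanpy 1.11.5, expected rate 0.06) scored doublets, and the highest 0.8% per 1000 cells were removed, 332 and 754. Both libraries were clustered together without class I, other H2-, haemoglobin, immunoglobulin, T cell receptor, mitochondrial, ribosomal protein and sex-linked genes (2000 variable genes, 30 principal components, 15 neighbours, Leiden resolution 1, seed 0; tools scikit-learn 1.9.0, leidenalg 0.10.2 and igraph 0.11.9), which gave 27 clusters, 7 of them erythroid. A cluster took a name from at least 3 listed markers among its 50 leading genes. The ranking of those genes, by fold over the median cluster, was chosen after the data were seen. Cluster 21, led by immunoglobulin genes (15 and 107 cells), stayed unnamed, and 6 and 9 basophil-like cells were not compared.

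The UMIs of all cells in a group were added up and scaled to 1000000 UMIs outside 10 haemoglobin genes. Early cells had 14312766 and 6562425 such UMIs and late cells 991097 and 450760. Intervals at 95% were exact Poisson (levels), exact conditional (ratios) and exact Clopper-Pearson (shares), computed with scipy 1.17.1. UMIs of 1 library are not replicates, so intervals cover counting error only and no p-value is given. Ratios with 3 or fewer UMIs in both groups were left out. Free RNA was estimated from barcodes of 10 to 100 UMIs, scaled in each stage by 10 B cell genes. In sum these genes were about as high in dendritic cell-like as in B cell-like cells. In late bleeding cells it exceeded the observed levels of H2-K1, H2-Q7, Tap1, Tap2 and Nlrc5, so subtraction may remove too much. The members, the lists and the genes named from them (the 3 with the most UMIs in each list, and any with at least 50 UMIs and 50 CPM whose treatment interval in early or late cells lay beyond 1.5-fold) were chosen with earlier results of these data known. The interval method was run on simulated Poisson counts with known ratios. The intervals held the true ratio for 95.7% of genes (early cells, between treatments) and 95.9% (late over early, PHZ). These counts had the counting error that the intervals assume and no spread between cells or mice. The simulation thus cannot show how the ratios would vary between mice. The closing section gives 12 alternatives.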

Additional observations from a re-analysis of the deposited data

Results flagged for a closer look

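In 5 comparisons the 2 libraries, or 2 stages, had intervals on opposite sides of 1, and none of these differences was itself tested. H2-K1 in the last barcodes over early cells had a ratio of 0.698 in the PHZ and 1.21 in the bleeding library, at levels of 0.947 and 0.706 times free RNA. B2m in late cells with 300 to under 500 genes over early cells had 1.21 in the PHZ and 0.909 in the bleeding library. The PHZ over bleeding ratio of B2m was 0.847 in early cells, 1.13 in late cells with few genes and 1.41 in the last barcodes. That of H2-T23 was 0.784 in early cells and 1.54 in late cells with few genes. Among late cells with at least 300 genes, the Isg15-led cluster 4 held 786 PHZ and 274 bleeding cells and cluster 1 held 814 and 1337, and H2-T23 was at 361 and 429 CPM in the former and 167 and 129 in the latter.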

How the results depend on the processing

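H2-T23 was higher in late than in early cells under 12 of 12 alternatives, with log2 ratios of 1.17 to 6.76 in the PHZ and 0.953 to 6.04 in the bleeding library. With all UMIs as the denominator 8 genes were at least 2-fold lower in each library, with median log2 ratios of -3.48 and -3.28, and H2-Q7 in the bleeding library was at -1.92. Median-of-ratios scaling, which removes a shift of all genes of -2.69 and -2.15, left 0 lower in each library, with medians of 2.11 and 1.80. Relative to that shift H2-K1 (1.52), Tap1 (0.43), Tap2 (0.20) and Tapbp (1.79) in the PHZ library and B2m (1.80) in the bleeding library were higher in late cells. When every cell was given an equal total the medians were 0.068 and 0.20, B2m in the bleeding library was at 0.30, and the PHZ over bleeding value of Tap1 in early cells was 0.30. With free RNA subtracted, H2-K1, H2-Q7, Tap1, Tap2 and Nlrc5 of late bleeding cells were at or under the floor of 3 counts. They were set to that floor, so the bleeding median of -0.81 and the H2-Q7 value of -0.71 are upper limits. With haemoglobin bounds of 10, 40 and 70%, Tapbp in the PHZ library was at 0.049 and 4 genes differed between treatments in late cells. Without the 3 cells richest in each gene, 0 genes were lower in the bleeding library. Removal took all late bleeding UMIs of Tap2 (3 of 3) and Nlrc5 (1 of 1). Their counts of 0 were set to the floor of 3, so the floor made this result. Where no construction shows it, the cause was not tested. Of 108 single values, 76 (PHZ, late over early), 80 (bleeding) and 99 (early, between treatments) moved less than their interval, as did 69 of 72 in late cells. No paired analysis was possible because each treatment had 1 library, and for the same reason no library could be left out. Late cells limit the depth, with 1 to 3 UMIs of Tap1, Tap2 and Nlrc5.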
